A study of Mus musculus with 6 samples.

Results

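The large ribosomal subunit of mouse cells is built from ribosomal RNA and a set of proteins named Rpl or Rplp, and 38 of their genes are described here in embryonic stem cells with reduced Rsl24d1. The 38 were taken by symbol from the 22332 rows of the deposited table. Rpl5, Rpl11, Rpl24 and the genes with an expressed paralog were left out by that choice. All 38 passed the low-count filter and were tested.

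Total RNA, after removal of ribosomal RNA, was sequenced from CGR8, an established line of mouse embryonic stem cells kept in 10% fetal bovine serum with the cytokine LIF. The 3 control libraries (siCtrl 1 to 3) came from cells given a pool of non-targeting siRNAs. The 3 knockdown libraries (siRSL24D1 1 to 3) came from cells given a pool of siRNAs against Rsl24d1, and both kinds of culture were collected 48 hours after transfection. Library totals ran from 30943635 to 35214000 estimated counts. All libraries come from 1 cell line. The series calls the libraries of a group independent triplicates without saying what separated them, so the p-values measure the spread between these samples, which may be technical.

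Ribosomal proteins of the large subunit are made in the cytoplasm, carried into the nucleus and placed on precursor ribosomal RNA in a set order, with assembly factors holding sites that proteins or RNA later fill. Rsl24d1 is such a factor; it is related in sequence to the ribosomal protein Rpl24 and holds the place of Rpl24 on the maturing subunit. The finished subunit has equal numbers of nearly all its proteins. Their mRNAs are among the most abundant of growing cells, and many begin with a C followed by a run of pyrimidines (a 5′ terminal oligopyrimidine, or TOP, start), through which their translation and stability follow nutrient signals.

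The knockdown was visible in each library. Levels are CPM, a gene's counts relative to the library's total, scaled between libraries by TMM. Rsl24d1 was at 99.4, 102.7 and 97.9 CPM in siCtrl 1 to 3 and at 53.8, 55.6 and 52.1 CPM in siRSL24D1 1 to 3. Its log2 fold change, siRSL24D1 over siCtrl, was -0.89 with a standard error (SE) of 0.04, and the adjusted p of the edgeR quasi-likelihood test (Benjamini-Hochberg) was 2.0e-05. The ratio of the means was 0.538, so the knockdown was partial.

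All 38 large-subunit mRNAs had a negative log2 fold change, most of them small. With a correction for transcript length 2 of them, Rpl37a and Rplp2, turned to 0.03 and 0.01 and the median moved to -0.14. By edgeR, at an adjusted p under 0.05, 29 of the 38 fell, 0 rose and 9 did not pass the test. The background was high, since 20% of the 15084 tested genes fell by the same rule and 21.2% rose (41.2% called in all). Of the 625 genes at or above 8 in average log2 CPM, 31.5% fell. The members' median log2 fold change was -0.22, with the middle of the list between -0.28 and -0.18 and the extremes at -0.54 and -0.06, against a median of 0.02 over all genes tested. For 27 members every siRSL24D1 library lay below every siCtrl library, which was the case for 26.2% of all genes tested. In bulk RNA, fewer cells of a type and less RNA per cell cannot be told apart, and every level is relative to the rest of its library.

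**Figure D1:**
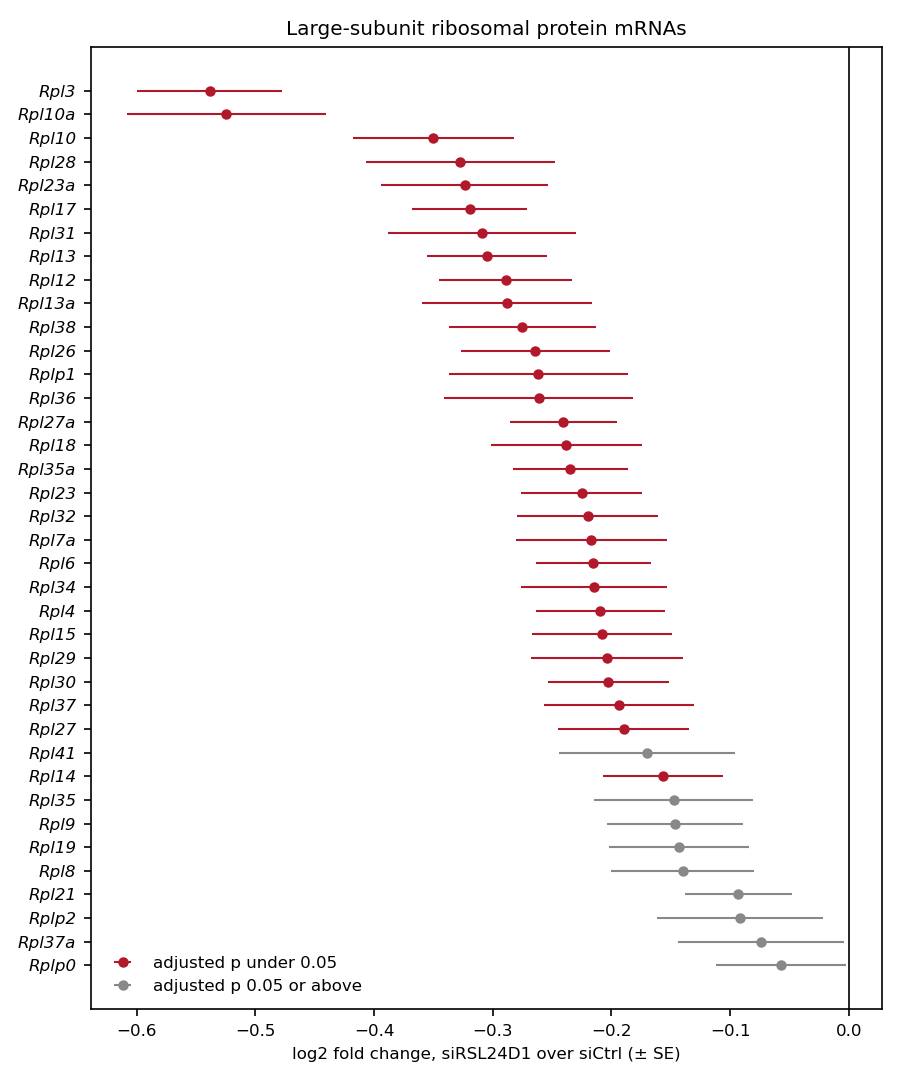
Log2 fold change of each large-subunit mRNA, siRSL24D1 over siCtrl (x axis, log2 of TMM-scaled levels, n = 3 libraries a group), with bars of 1 SE, for the 38 genes in order of their change (y axis). All 38 points lie left of 0, Rpl3 and Rpl10a at -0.54 and -0.52 stand apart on the left, and the 29 genes past the test are in red.

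The number of calls turned on single libraries. It was 15 without siCtrl 1 (15.5% of all genes tested fell then), 11 without siCtrl 2 (14.1%) and 37 without siCtrl 3 (21.5%). It was 16 without siRSL24D1 1 (16.4%), 29 without siRSL24D1 2 (18%) and 13 without siRSL24D1 3 (14.4%). The median log2 fold change of the 38 was between -0.20 and -0.28 in these fits. Rpl3, Rpl10, Rpl10a, Rpl12, Rpl13, Rpl17, Rpl23, Rpl23a, Rpl27a, Rpl35a and Rpl38 were called with any 1 library left out, and the other 18 calls were each lost without at least 1 library. At an adjusted p under 0.01 in edgeR, 12 of the 38 fell, against 12.4% of all genes tested.

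The members moved together between libraries of the same group. Relative to the siCtrl mean of each gene, the median member was at 0.05, 0.06 and -0.12 (log2 CPM) in siCtrl 1 to 3 and at -0.26, -0.16 and -0.25 in siRSL24D1 1 to 3. All 38 were lowest in siCtrl 3 among the controls. In 37 of them siRSL24D1 2 was the highest of its group, the exception being Rpl9. The median member was thus only slightly lower in siRSL24D1 2 than in siCtrl 3. Of the 11 members whose groups overlapped, 10 had siRSL24D1 2 above siCtrl 3, and 4 had siRSL24D1 1 or siRSL24D1 3 above it. The pattern was not particular to these genes. Summed, the small-subunit genes took 4.32%, 4.34% and 3.92% of the counts in siCtrl 1 to 3. In siRSL24D1 1 to 3 they took 3.61%, 3.81% and 3.61%.

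**Figure D2:**
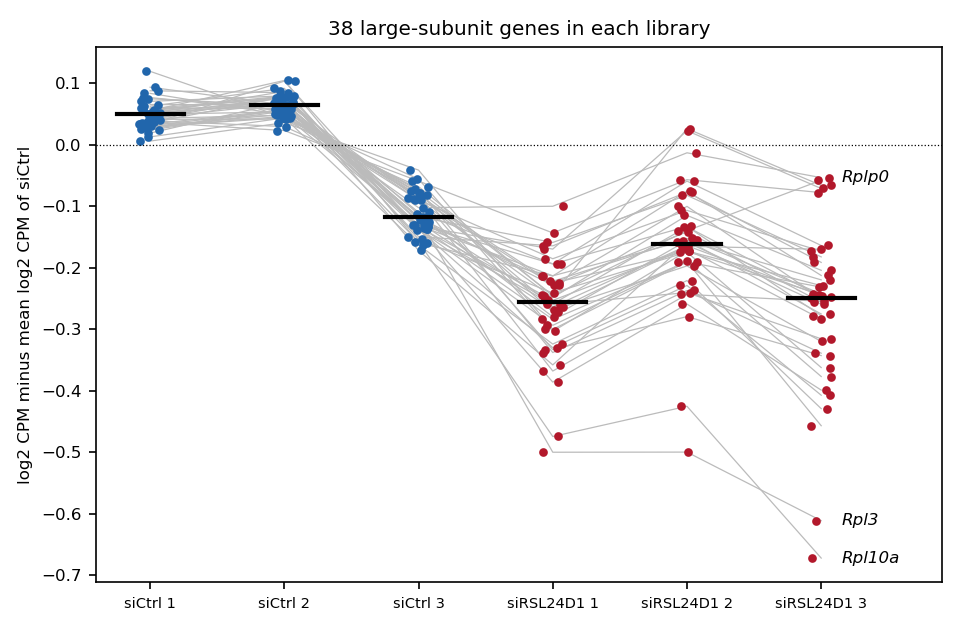
Level of each of the 38 mRNAs in each library (x axis) as log2 CPM minus the gene's mean log2 CPM in siCtrl (y axis). Points are genes, grey lines join the same gene, and black bars are the median of the library, at 0.05, 0.06 and -0.12 in siCtrl and -0.26, -0.16 and -0.25 in siRSL24D1.

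Because of this shared movement the members varied less against each other than against the library, more clearly so in siCtrl. The coefficient of variation of CPM within siCtrl ran from 2.69% to 10.0% over the members, with a median of 6.95%. When each gene was taken as a share of the summed counts of the 38, it ran from 0.293% to 4.47% with a median of 1.78%. In siRSL24D1 the medians were 4.46% for CPM and 2.34% for the share. The largest values there were 9.40% for CPM (Rplp2) and 7.75% for the share (Rpl9).

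Summed, the 38 genes made up 5.54%, 5.57% and 5.01% of the counts of siCtrl 1 to 3 and 4.58%, 4.80% and 4.55% of siRSL24D1 1 to 3. The siRSL24D1 libraries were all below the siCtrl libraries, at 4.64% ± 0.137 against 5.37% ± 0.315 (SD, n = 3). The difference was -0.733 percentage points, and the two-sided exact permutation p was 0.1, the smallest that 3 libraries against 3 can give. Gene by gene, 28 members had lower shares of the library total in every siRSL24D1 library than in every siCtrl library, against 24.2% of all genes tested.

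The small-subunit genes, 32 in number, fell by a like amount. They made up 4.19% ± 0.238 of the counts in siCtrl and 3.68% ± 0.116 in siRSL24D1 (SD, n = 3), and 25 of the 32 fell with 0 rising (edgeR, adjusted p under 0.05). Their median log2 fold change was -0.21. The ratio of summed counts, large over small, was 1.283, 1.283 and 1.279 in siCtrl and 1.268, 1.258 and 1.259 in siRSL24D1. The ratio was thus lower in every siRSL24D1 library, by 0.0199 between the means 1.28 ± 0.00239 and 1.26 ± 0.00538 (SD, n = 3; exact permutation p = 0.1, the smallest possible). With medians over genes in place of sums the difference was -0.00863 (exact permutation p = 0.2). Rpl3 and Rpl10a, the members with the largest falls, made up most of the difference of the sums: without them, a removal chosen by their change and so given with no test, the means were 1.1841 and 1.1837.

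**Figure D3:**
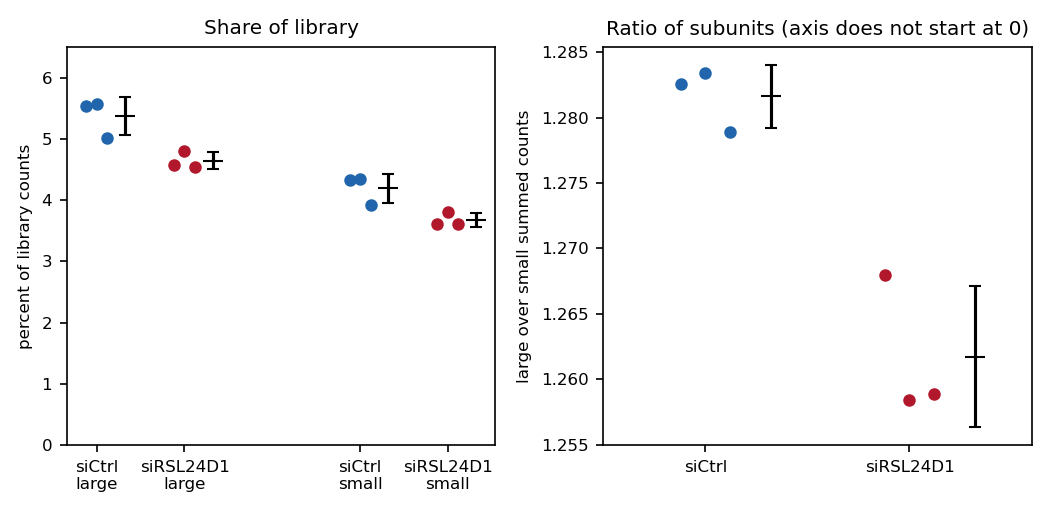
Left, percent of each library's estimated counts in the 38 large-subunit genes and the 32 small-subunit genes; right, the ratio of the summed counts, on an axis that does not start at 0. Points are libraries and bars are mean ± SD (n = 3); both shares and the ratio are lower in every siRSL24D1 library than in any siCtrl library.

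Rpl3, Rpl8 and Rpl10 encode proteins that reach towards the peptidyl transferase centre, where peptide bonds form; 2 of the 3 fell. Rpl3 (chr15:80077791-80091868, minus strand, GRCm38), whose protein has a long extension into the centre, was at 3086, 3127 and 2749 CPM in siCtrl and at 2109, 2109 and 1952 CPM in siRSL24D1. The groups were far apart, and this was the largest fall of the 38, with a log2 fold change of -0.54 (SE 0.06, edgeR adjusted p = 0.000366).

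Rpl10 (chrX:74270812-74273135, plus strand), a late-joining protein that helps position tRNA, was at 276, 290 and 246 CPM in siCtrl and at 206, 225 and 205 CPM in siRSL24D1. The groups did not overlap, and the log2 fold change was -0.35 (SE 0.07, edgeR adjusted p = 0.00425). This value is uncertain because a near-identical copy shares its reads, as given below. Rpl8, next to the catalytic RNA, was at 1954, 1986 and 1757 CPM in siCtrl and at 1658, 1820 and 1693 CPM in siRSL24D1. Here siRSL24D1 2 lay above siCtrl 3, and the log2 fold change of -0.14 did not pass the test (SE 0.06, edgeR adjusted p = 0.0972).

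Rpl9 and Rpl23 lie by the site where translation factors and, during maturation, the anti-association factor Eif6 dock; 1 of the 2 fell. Rpl23, which holds the contact with Eif6, was at 1981, 2009 and 1837 CPM in siCtrl and at 1617, 1732 and 1637 CPM in siRSL24D1. The groups did not overlap, at a log2 fold change of -0.23 (SE 0.05, edgeR adjusted p = 0.00873). Rpl9, which braces the factor-binding site, was at 1375, 1366 and 1276 CPM in siCtrl and at 1129, 1214 and 1286 CPM in siRSL24D1. It was the member in which siRSL24D1 3 was the highest of its group, above siCtrl 3, and its log2 fold change of -0.15 did not pass the test (SE 0.06, edgeR adjusted p = 0.0725).

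The stalks, movable arms of the subunit that guide tRNA out and bring elongation factors in, held both 1 of the 2 largest changes of the list and the smallest; 3 of the 5 fell. Rpl10a (chr17:28328471-28331033, plus strand), the protein of the stalk at the tRNA exit side, was at 1211, 1188 and 1018 CPM in siCtrl and at 817, 846 and 713 CPM in siRSL24D1. The groups were well separated, at a log2 fold change of -0.52 (SE 0.08, edgeR adjusted p = 0.00177). Rpl12, at the base of the factor-recruiting stalk, was at 1709, 1770 and 1587 CPM in siCtrl and at 1307, 1425 and 1414 CPM in siRSL24D1, without overlap. Its log2 fold change was -0.29 (SE 0.06, edgeR adjusted p = 0.0043).

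Rplp0, Rplp1 and Rplp2 form that factor-recruiting stalk, with Rplp0 as the scaffold and Rplp1 and Rplp2 as the acidic arms. Rplp1 was at 1711, 1746 and 1473 CPM in siCtrl and at 1386, 1451 and 1274 CPM in siRSL24D1. The groups did not overlap, although siRSL24D1 2 came close to siCtrl 3, and the log2 fold change was -0.26 (SE 0.08, edgeR adjusted p = 0.0242). The call of Rplp1 was lost without siCtrl 1, siCtrl 2, siRSL24D1 1 or siRSL24D1 3, with an edgeR adjusted p of up to 0.0998.

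Its partner Rplp2 was at 638, 646 and 594 CPM in siCtrl and at 528, 637 and 597 CPM in siRSL24D1. The groups overlapped in both siRSL24D1 2 and siRSL24D1 3, and the log2 fold change was -0.09 (SE 0.07, edgeR adjusted p = 0.328), or 0.01 with the length correction. Rplp0 was at 2771, 2778 and 2494 CPM in siCtrl and at 2498, 2653 and 2580 CPM in siRSL24D1. All 3 siRSL24D1 libraries lay above siCtrl 3 and below the other controls, and the log2 fold change of -0.06 was the smallest of the 38 (SE 0.05, edgeR adjusted p = 0.436).

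Around the tunnel through which the nascent chain leaves, 5 of 7 members fell, and their log2 fold changes ran from -0.32 to -0.14. Rpl23a, the docking point for chaperones and the signal recognition particle at the tunnel exit, was at 2220, 2251 and 1938 CPM in siCtrl and at 1696, 1819 and 1607 CPM in siRSL24D1. The groups did not overlap, at a log2 fold change of -0.32 (SE 0.07, edgeR adjusted p = 0.00728). Rpl17 and Rpl4, whose loops form the narrowest part of the tunnel, were at -0.32 and -0.21, Rpl31 and Rpl26 at the exit were at -0.31 and -0.26, and each passed the test. The calls of Rpl4 (edgeR adjusted p up to 0.0774), Rpl31 (up to 0.0611) and Rpl26 (up to 0.0565) were lost without siCtrl 2 or siRSL24D1 3, those of Rpl4 and Rpl31 also without siCtrl 1, and that of Rpl4 also without siRSL24D1 1. Rpl35 and Rpl19, also at the exit, were at -0.15 and -0.14 and did not (edgeR adjusted p = 0.112 and 0.0859).

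The other 21 members lie in the body and on the outer face of the subunit, and 18 of them fell, with log2 fold changes from -0.33 to -0.07. Rpl28, an outer protein of the eukaryotic subunit, was at 729, 692 and 599 CPM in siCtrl and at 536, 575 and 498 CPM in siRSL24D1. The groups did not overlap, and the log2 fold change was -0.33 (SE 0.08, edgeR adjusted p = 0.0122); the adjusted p was 0.0518 without siCtrl 2 and 0.0502 without siRSL24D1 3. Rpl13, Rpl13a, Rpl38, Rpl36, Rpl27a, Rpl18 and Rpl35a followed between -0.30 and -0.23, and Rpl32, Rpl7a, Rpl6, Rpl34, Rpl15, Rpl29, Rpl30, Rpl37, Rpl27 and Rpl14 between -0.22 and -0.16. Apart from Rpl13, Rpl27a, Rpl35a and Rpl38, each of these lost its call without at least 1 of siCtrl 1, siCtrl 2, siRSL24D1 1 and siRSL24D1 3, with an edgeR adjusted p of up to 0.151 for Rpl14. With a correction for transcript length Rpl14, Rpl27, Rpl29 and Rpl30 no longer passed (edgeR adjusted p = 0.0824, 0.0571, 0.0554 and 0.0544).

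The 3 body members that did not pass were Rpl41, Rpl21 and Rpl37a. Rpl41, the shortest protein of the ribosome, was at -0.17 (edgeR adjusted p = 0.1). Rpl21 was at 1033, 1024 and 967 CPM in siCtrl and at 912, 969 and 955 CPM in siRSL24D1; siRSL24D1 2 lay just above siCtrl 3, at a log2 fold change of -0.09 (SE 0.04, edgeR adjusted p = 0.133). Rpl37a, a zinc-binding protein of the body, was at 1018, 1034 and 893 CPM in siCtrl and at 871, 995 and 932 CPM in siRSL24D1. Both siRSL24D1 2 and siRSL24D1 3 lay above siCtrl 3, at a log2 fold change of -0.07 (SE 0.07, edgeR adjusted p = 0.43), or 0.03 with the length correction.

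By conservation, of the 15 members with a bacterial counterpart 11 fell, at a median log2 fold change of -0.26, and of the 21 found in eukaryotes (many of them shared with archaea) 17 fell, at a median of -0.21. Across the 38 genes the log2 fold change had a Spearman rho of -0.03 with transcript length, 0.039 with GC content and -0.015 with average level. These are descriptions over genes of the same 6 libraries. Over 15073 tested genes with a length, the rho with length was 0.15, and with a correction for length 25 of the 38 fell, against 22% of all genes tested. Over the 625 genes at or above 8 in average log2 CPM, where the members lie, the rho was 0.29 with length, -0.117 with GC content and -0.2 with level.

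The composition of the large-subunit mRNA pool was then compared, with each library scaled to the summed counts of the 38 instead of to the whole library. By edgeR 7 of the 38 changed at an adjusted p under 0.05, 2 lower and 5 higher, against 50.4% of all genes tested on that scale, 6.64% lower and 43.8% higher. On this scale the shared movement of the members is removed, and all other genes are measured against it.

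Rpl3 took 5.51%, 5.53% and 5.48% of the pool in siCtrl and 4.67%, 4.38% and 4.35% in siRSL24D1. The siCtrl libraries were nearly equal and the siRSL24D1 libraries all clearly lower, at a log2 change of the share of -0.30 (SE 0.04, edgeR adjusted p = 0.000738). Rpl10a took 2.16%, 2.10% and 2.03% in siCtrl and 1.81%, 1.76% and 1.59% in siRSL24D1, again without overlap, at -0.29 (SE 0.06, edgeR adjusted p = 0.00439). Both calls held with any 1 library left out.

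Rplp0 took 4.95%, 4.91% and 4.98% of the pool in siCtrl and 5.53%, 5.51% and 5.75% in siRSL24D1. Its share was higher in every siRSL24D1 library, at a log2 change of 0.18 (SE 0.03, edgeR adjusted p = 0.00314), and this call also held with any 1 library left out. The mRNA that changed least against the library was thus the one whose share of the pool rose most. This order was fixed by the scaling, which moves every log2 fold change by nearly the same amount. That of Rplp0 went from -0.06 to 0.18 and that of Rpl3 from -0.54 to -0.30. In the TMM-scaled fit the 5 members with higher shares all had negative log2 fold changes. Rpl3 had the largest share of the pool in every siCtrl library and Rplp0 in every siRSL24D1 library.

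The other 4 shares that rose were those of Rpl37a, Rpl21, Rpl8 and Rpl19. Rpl37a went from 1.82%, 1.83% and 1.78% to 1.93%, 2.07% and 2.08% of the pool (log2 change 0.16, edgeR adjusted p = 0.0147). Rpl21 was at 0.14, Rpl8 at 0.09 and Rpl19, a tunnel-exit protein with a long helix to the small subunit, at 0.09 (edgeR adjusted p = 0.0267, 0.0388 and 0.0334). In all 4 the groups did not overlap, but this held for 18 of the 38 members on this scale, counting both directions. The share of all genes without overlap was not counted on this scale. Each of the 4 lost its call without siCtrl 1 or without siRSL24D1 3, Rpl21, Rpl8 and Rpl19 also without siCtrl 2 or siRSL24D1 1, and Rpl8 and Rpl19 also without siRSL24D1 2. The number of members that changed share was 3 without siCtrl 1 (5.16% of all genes tested were lower and 31.2% higher then), 4 without siCtrl 2 (4.88% and 30.2%), 11 without siCtrl 3 (5.98% and 57.7%) and 3 without siRSL24D1 3 (4.43% and 30.8%).

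**Figure D4:**
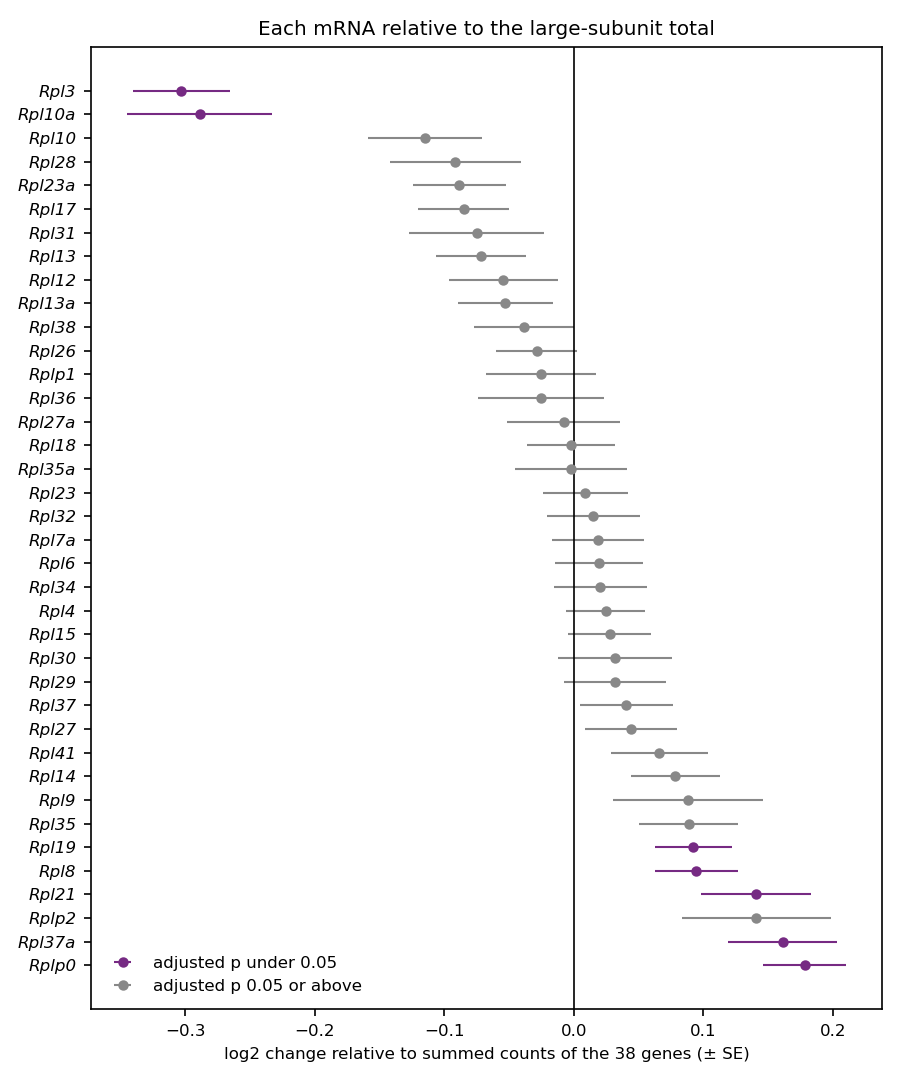
Log2 change of each mRNA's share of the summed counts of the 38 genes, siRSL24D1 over siCtrl (x axis, bars of 1 SE, n = 3 libraries a group), in order of the change (y axis). The 7 genes past the test, in purple, are Rpl3 and Rpl10a at -0.30 and -0.29 and 5 genes between 0.09 and 0.18.

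Rpl10 needs a separate account, because a second annotated gene, Rpl10-ps3, is identical to it over 740 aligned bases. Rpl10-ps3 held 82.4% of the estimated counts of the pair. Rpl10 took 18.8%, 19.6% and 18.2% of the pair in siCtrl and 16.4%, 16.6% and 15.7% in siRSL24D1, so that its share of the pair was lower in every siRSL24D1 library. Rpl10-ps3 itself had a log2 fold change of -0.09 (edgeR adjusted p = 0.192). With all such pairs summed, an alternative chosen after seeing the data, the log2 fold change was -0.13 (edgeR adjusted p = 0.0716), and Rpl10 was no longer among the genes that fell. The pair's share of the member pool was then higher in siRSL24D1, at a log2 change of 0.10 (edgeR adjusted p = 0.0454), against -0.11 (edgeR adjusted p = 0.0607) for Rpl10 alone. Reads of identical stretches are divided between the rows by the counting, so the split cannot be told apart from a change of either gene.

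**Figure D5:**
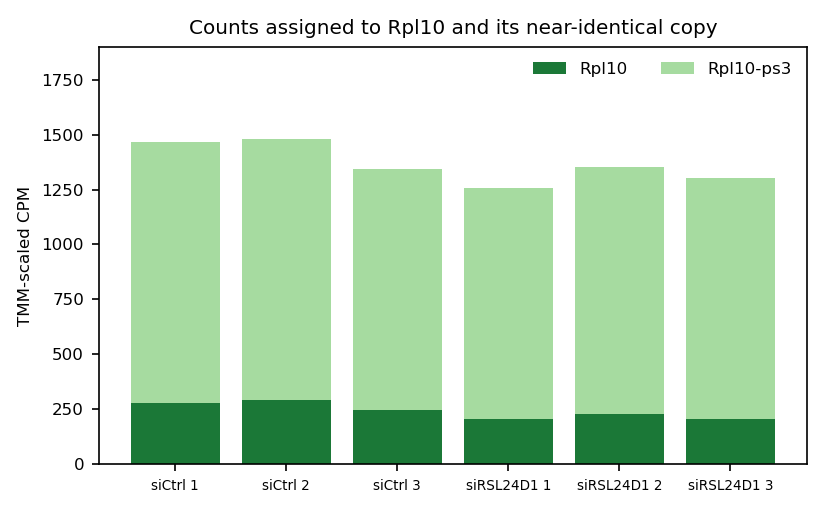
Stacked TMM-scaled CPM (y axis) of Rpl10 and its near-identical copy Rpl10-ps3 in each of the 6 libraries (x axis). Rpl10 is the smaller, lower segment in every library, at 246 to 290 CPM in siCtrl and 205 to 225 CPM in siRSL24D1.

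Near-identical copies in the genome are the rule for these genes. In the annotation 37 of the 38 have at least 1 copy of at least 97% identity over at least 100 bases. Only 8 members have such a copy among the rows of the table, and apart from Rpl10 the largest share is that of Gm2000, next to Rpl35, which took 16.7% of the pair's counts. In the other 6 the copies took up to 3.65% of a pair. With all such copies summed, 28 of the 38 fell, against 20% of all genes tested.

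The pool was uneven per unit of length. In siCtrl the level per kilobase of transcript had a median of 1740 CPM per kb and ran from 327 for Rpl10 to 4288 for Rpl26, a 13.1-fold range, while 32 of the 38 lay within 2-fold of the median. With Rpl10-ps3 added, Rpl10 was at 1730 CPM per kb, next to the median, the lowest member was Rpl18 at 665 and the range was 6.45-fold. These values rest on annotated lengths, the median over a gene's transcripts, and the transcripts used in these cells were not measured. The length taken for Rpl18 was 1834 bases, the longest of the 38, and its mean level in siCtrl was 1220 CPM. In siRSL24D1 the median was 1500 CPM per kb and the range 13.9-fold, or 6.33-fold with Rpl10-ps3 added.

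TOP starts were looked for in the promoters, since the members moved together, as the small-subunit genes also did. RefSeq promoter sequence (GRCm38.p6) was matched for 28 of the 38 members. A run of at least 7 pyrimidines that begins with C, starting on the gene's strand between 30 bases before and 20 bases after the annotated transcription start, was present in 17 of the 28 (60.7%), against 28.4% of 27025 genes. The 8 members whose run begins within 5 bases of the start are shown from 40 bases before to 20 bases after it, 5′ to 3′ on the gene's strand, with the run in capitals.
Rpl13a, chr7:45128726-45128785, minus strand: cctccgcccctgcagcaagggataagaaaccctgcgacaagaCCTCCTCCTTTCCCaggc
Rpl15, chr14:18270967-18271026, minus strand: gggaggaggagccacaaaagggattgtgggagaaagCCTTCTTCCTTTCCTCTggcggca
Rpl18, chr7:45718031-45718090, plus strand: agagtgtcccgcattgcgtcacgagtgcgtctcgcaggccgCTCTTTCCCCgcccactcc
Rpl27a, chr7:109519155-109519214, plus strand: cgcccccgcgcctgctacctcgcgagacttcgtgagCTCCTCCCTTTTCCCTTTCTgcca
Rpl28, chr7:4792925-4792984, plus strand: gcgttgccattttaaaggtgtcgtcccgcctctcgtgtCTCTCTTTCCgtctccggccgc
Rpl35a, chr16:33056442-33056501, plus strand: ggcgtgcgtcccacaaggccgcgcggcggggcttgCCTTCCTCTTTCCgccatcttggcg
Rpl38, chr11:114668540-114668599, plus strand: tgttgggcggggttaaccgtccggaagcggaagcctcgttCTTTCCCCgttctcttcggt
Rplp2, chr7:141447611-141447670, plus strand: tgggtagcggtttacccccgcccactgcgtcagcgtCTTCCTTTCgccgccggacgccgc

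The runs in these 8 stretches are 8 to 20 bases long, shortest in Rpl38 and longest in Rpl27a. Of the 17 members with a run 14 fell, at a median log2 fold change of -0.23, and of the 11 with a promoter entry and no run in that window 7 fell, at -0.19. Over all genes tested 20% fell. A run by this rule need not be a TOP start: that of Rpl31, of 13 bases, begins 18 bases before the annotated start and ends before it. Rplp2, with a run of 9 bases beginning 4 bases before the start, was among the 5 least lowered members of the list, while Rpl28, with 10 bases, was among the 5 most lowered. The annotated start need not be the start used in these cells.

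Other short motifs were counted over the whole promoter window, from 250 bases before to 50 after the start. CCGGAAG, a core bound by ETS factors, was on either strand in 42.9% of the 28 members and 9.93% of 27025 genes. CTCTTTC on the gene's strand, which overlaps the pyrimidine runs, was in 25% and 4.6%, and GGGCGG, a GC box, on either strand in 78.6% and 38.2%. CACGTG, the E-box that Myc and its partners bind, was in 17.9% and 8.09%, AAGATGG, as in the site of Yy1, on either strand in 10.7% and 7.28%, and TATAAA on the gene's strand in 3.57% and 9.77%. A match describes letters in the window and not a site in use.

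Introns of ribosomal protein genes often carry small nucleolar RNAs, which guide the modification of ribosomal RNA. In the annotation 17 members hold 34 of them, among them Rpl4 with 5 and Rpl13a with 4. Of these 17 hosts 15 fell, at a median log2 fold change of -0.23, and of the 21 members with none 14 fell, at -0.21. Among all 38 members 29 fell, and among all genes tested 20%.

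Related genes outside the 38 were set beside them. Of the 14 tested large-subunit genes outside the list, which include paralogs, 9 fell and 2 rose, and Rpl24, the relative of Rsl24d1, was at -0.19 (edgeR adjusted p = 0.0359). The 2 that rose were Rpl10l, the germ-line paralog of Rpl10, at 0.66 from only 6.86 ± 0.492 CPM in siCtrl (SD, n = 3), and Rpl7l1 at 0.25. Rpl22l1, the paralog of Rpl22, had the largest fall there, at -0.98.

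Of 20 other mRNAs known for TOP starts, mostly translation factors, 9 fell and 0 rose at a median log2 fold change of -0.10. Eif4a2, an RNA helicase of translation initiation, was at -0.63, Hnrnpa1 at -0.27 and Eif4b at -0.23. Pabpc1, Npm1 and Eef1g were at 0.05, -0.04 and -0.04 (SE 0.27, 0.04 and 0.05) and did not pass the test (edgeR adjusted p = 0.912, 0.524 and 0.518). Pabpc1 varied widely within each group, from 247 to 482 CPM in siCtrl and from 236 to 420 CPM in siRSL24D1. Of 13 regulators of ribosomal protein mRNAs in the mTOR and Myc pathways, 5 rose and 1 fell. Mycn was at 0.54, Myc at 0.53 and Max, the binding partner of both, at 0.25 (edgeR adjusted p = 0.000121, 0.000825 and 0.00888), and Larp1, which binds TOP starts, was at -0.20 and did not pass the test (edgeR adjusted p = 0.168).

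Of 4 dedicated chaperones that escort ribosomal proteins, 2 rose and 0 fell. Grwd1, the chaperone of Rpl3, rose by 0.37 on the log2 scale (SE 0.05, edgeR adjusted p = 0.000868), and Heatr3, which escorts Rpl5 and Rpl11, rose by 0.25 (SE 0.04, edgeR adjusted p = 0.00193). Aamp, a partner of Rpl10, was at 0.01 and Bccip, a partner of Rpl23, at 0.00, and neither passed the test (edgeR adjusted p = 0.917 and 0.953).

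Markers of cell type moved between the same libraries. The summed level of 8 embryonic stem cell markers was 2975 to 3314 CPM in siCtrl and 2595 to 2690 CPM in siRSL24D1. Of the 8, 5 fell and 1 rose (Zfp42), and Pou5f1 was at 0.00. The sum fell mostly through Dppa5a and Tdgf1. Their TMM-scaled means were 1158 and 668 CPM in siCtrl and 836 and 434 CPM in siRSL24D1. The 4 neural markers summed to 25.3 to 28.3 CPM and 53.5 to 60.1 CPM, with 2 higher (Tubb3 and Neurod1). Most of that sum was Tubb3, with TMM-scaled means of 21.2 CPM in siCtrl and 44.9 CPM in siRSL24D1. Pax6 and Sox1 did not pass the test (edgeR adjusted p = 0.559 and 0.185). The 5 trophoblast markers summed to 20.2 to 21.9 CPM and 30.7 to 33.8 CPM. Of these, 3 were higher (Cdx2, Eomes and Hand1), and Tpbpa was at no more than 3 counts in any library. Eomes made up most of the sum, with TMM-scaled means of 16.1 CPM in siCtrl and 21.7 CPM in siRSL24D1. The 8 fibroblast markers summed to 125 to 159 CPM and 123 to 149 CPM, with 2 lower (Col1a2 and Pdgfrb) and 1 higher (Col3a1). The 5 endoderm markers summed to 17.0 to 19.5 CPM and 17.4 to 18.6 CPM, with 2 higher (Gata4 and Gata6) and 1 lower (Dab2). Dab2 had the highest level of the 5, with TMM-scaled means of 11.2 CPM in siCtrl and 8.36 CPM in siRSL24D1. Mitochondrially encoded mRNA took 2.08% ± 0.0597 of the counts in siCtrl and 2.20% ± 0.0497 in siRSL24D1 (SD, n = 3). The part of these shifts in the lower level of the large-subunit mRNAs was not tested.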

How the data were processed

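RNA-seq of 6 libraries was analysed. Values in the deposited table are estimated counts for each gene symbol, unscaled between libraries, and 21.59% to 22.65% of a library's values were not whole. STAR 2.7.0f, Salmon 0.14.1 and the build GRCm38 are named per the submitters' processing notes. Which step each tool served, the annotation release and the strand setting are not given in the sources at hand. The tests had been planned for counts, so the estimated counts were first rounded.

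Low genes were removed with filterByExpr (count of at least 10, total of at least 15), and libraries were scaled by TMM and compared by the two-sided quasi-likelihood test of edgeR 4.0.16 in R 4.3.3, with no covariate. P-values were adjusted by Benjamini-Hochberg over all 15084 genes and called under 0.05. A second fit scaled libraries to the summed counts of the 38 genes. Shares and ratios were compared by exact permutation over libraries. CPM in the text is TMM-scaled, except in the sums of the marker lists, which are relative to library totals only. The fits were tested on simulated counts with known changes. Each gene was drawn independently there, so the shared movement of the members between libraries was not covered.

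Transcript lengths, coordinates and small nucleolar RNAs came from GENCODE M21, in which 22304 of 22332 symbols were found; copies were found with BLAST 2.17.0. Promoters came from RefSeq.

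The members, lists, roles and tests were chosen with earlier results of these data known. Values per library are given for the 5 most and 5 least lowered members and the peptidyl transferase, factor-site and stalk groups, and for Rsl24d1. Genes of other lists were named by smallest p (up to 3), and Rpl24 for its relation to Rsl24d1. Rpl10l, Rpl7l1, Pabpc1, Npm1, Eef1g, Larp1, Aamp, Bccip, Rpl10-ps3, Gm2000 and the cell type markers named singly were chosen after their values were seen.

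Alternatives included upper-quartile scaling, DESeq2 size factors, library totals, TMM without ribosomal protein genes, 2 other filters, a replicate block, a loess correction for transcript length with and without that block, DESeq2 1.42.0, limma-voom (limma 3.58.1), an adjusted p under 0.01, other denominators and summaries, and leaving out each library. Summing near-identical copies, not rounding, and leaving out Rpl3 and Rpl10a were chosen after seeing the data.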

Additional observations from a re-analysis of the deposited data

How the results depend on the processing

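Of the 38 genes, 29 or 30 fell under DESeq2 size factors, library totals, upper-quartile scaling, TMM without ribosomal protein genes, both other filters, DESeq2's own test, limma-voom and unrounded values, fits in which 15% to 22.4% of all genes tested fell. The count was 25 with the length correction (22% of all genes) and 26 with that correction and the replicate block (22.7%), and 12 at an adjusted p under 0.01 (12.4%). Leaving out 1 library gave 11 to 37. The sign changed only with the length correction, for Rpl37a (0.0269, or 0.0267 with the block) and Rplp2 (0.0149, or 0.0128 with the block), neither of which passed the test. Rpl3, Rpl10a, Rpl12, Rpl13, Rpl17, Rpl23, Rpl23a, Rpl27a, Rpl35a and Rpl38 kept their calls under every alternative run at an adjusted p under 0.05. In the main fit each was also under 0.01. With 1 library left out the edgeR adjusted p reached 0.0497 for Rpl23.

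The number of changed shares of the summed member counts was 11 with the length correction (11.6% of all genes lower and 41.9% higher), 11 with that correction and the block (11.5% and 43%), 3 at an adjusted p under 0.01 (3.38% and 27.6%), 5 with no filter (4.77% and 33.1%), 8 with copies summed (6.75% and 43.6%; Rpl10 with its copy was among them, higher) and 3 to 11 with 1 library left out. The cause was not tested. The difference in the summed share of the library was -0.635 to -0.915 percentage points with 1 library left out, and -0.918 as a percent of counts outside ribosomal protein and mitochondrially encoded genes. The difference in the large over small ratio was -0.0182 to -0.023 with 1 library left out, -0.0163 without the 5 most abundant genes of each subunit and -0.00863 (exact permutation p = 0.2) with medians in place of sums.

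The series does not say whether libraries of the same replicate number were handled together, and correlations between libraries cannot settle it. Over 15084 genes the deviations of same-numbered libraries correlated at -0.22, 0.14 and 0.17. Not every library correlated best with its own number (siCtrl 1 with siRSL24D1 2 at 0.34). The deviations of siCtrl 3 correlated at 0.26 with those of siRSL24D1 1 and at -0.40 with those of siRSL24D1 2. Variation within a group was thus in part shared across the groups over all genes. Its part in the members' fall was not tested. With the replicate block 33 of the 38 fell (20.6% of all genes) and 9 changed their share (6.95% of all genes lower and 49.3% higher); the paired exact permutation p of the summed share (-0.733) and of the ratio (-0.0199) was 0.25, the smallest that 3 pairs can give.

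With 3 libraries a group, differences under about the spread of siCtrl 3 from the other controls could not be resolved gene by gene, and a gene that misses the test is not shown to be level.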
